A study of Mus musculus with 12 samples.

Results

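Transcripts of Myb (Entrez 17863), Sox4 (Entrez 20677) and Tox (Entrez 252838), which encode transcription factors of T cell development in the thymus, were followed through mature naive CD4 T cells. The 3 genes were taken by symbol from the 10073 genes of the deposited table. They were chosen by their measured RPKM levels in the 12 RNA-seq libraries, so those levels are described here and not tested. The libraries came from 3 untreated mice, 4 sorted populations each, in a study that asked how naive cells with weaker or stronger basal signals of the T cell receptor (TCR) differ in their transcripts. Every mouse, whatever the population, was of C57/BL6 background and carried both the transgene Tg(Nr4a1-EGFP)GY139Gsat, written Nur77-GFP below, and the Foxp3tm1Flv allele, a red fluorescent reporter. In the transgene, regulatory sequence of Nr4a1 drives GFP, and TCR signals switch Nr4a1 on within a short time. Age and sex of the mice were not given in the sources used here. From spleen and lymph nodes, CD4 positive cells with low CD44 and no Foxp3 reporter signal were sorted by surface Ly6C, which is higher on naive cells of weak basal signalling, and by GFP. The Ly6C positive cells gave population A at low GFP and B at intermediate GFP. The Ly6C negative cells gave C at intermediate GFP and D at high GFP. A library is named by its labelled population and mouse number, so that D2 is population D of mouse 2.

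Myb encodes c-MYB, a DNA-binding activator that blood progenitors depend on and that developing thymocytes need for survival and for entry into the CD4 lineage. Sox4 encodes a factor with a single HMG-box DNA-binding domain. It serves early lymphocyte development, is induced by transforming growth factor beta (TGF-beta), and in mouse T helper cells restrains the T helper type 2 factor GATA3. Tox encodes a nuclear HMG-box protein that mouse thymocytes need to become CD4 T cells, and that calcineurin and NFAT signals sustain in chronically stimulated mouse CD8 T cells. All 3 genes are active in thymocytes and are as a rule turned down when T cells mature.

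Because the 3 transcripts were high and low in the same libraries, the promoters that could be matched are shown, those of Myb and Sox4, 2 of the 3 genes. Each is the window from 250 bases before to 50 bases after the annotated start, from RefSeq on GRCm38.p6, read 5′ to 3′ on the gene's strand, which is the minus strand for both. Capitals mark GGAAA, the core letters that NFAT factors bind, searched on both strands.
Myb promoter, chr10:21160935-21161234: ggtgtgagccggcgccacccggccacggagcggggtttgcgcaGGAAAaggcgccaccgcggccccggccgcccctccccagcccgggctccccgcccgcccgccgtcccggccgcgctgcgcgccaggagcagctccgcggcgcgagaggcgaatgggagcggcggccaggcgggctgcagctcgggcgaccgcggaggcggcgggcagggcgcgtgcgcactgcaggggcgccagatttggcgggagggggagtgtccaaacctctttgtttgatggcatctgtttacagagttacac
Sox4 promoter, chr13:28953650-28953949: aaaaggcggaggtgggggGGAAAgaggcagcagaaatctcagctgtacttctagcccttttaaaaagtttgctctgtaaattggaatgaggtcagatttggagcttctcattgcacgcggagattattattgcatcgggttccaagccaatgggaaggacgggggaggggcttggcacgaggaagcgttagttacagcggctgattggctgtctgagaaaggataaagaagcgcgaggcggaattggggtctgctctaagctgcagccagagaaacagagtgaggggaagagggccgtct
Each window held 1 GGAAA, at position -207 from the start in Myb and -232 in Sox4, and 61.3% of the 32851 promoter windows of this length held at least 1. Neither held the AP-1 letters TGANTCA (in 7.81% of all windows), the cyclic AMP response element TGACGTCA (1.79%), the NR4A element AAAGGTCA (1.51%) or the EGR letters GCGNGGGCG (5.55%), on either strand. Each held 1 E-box CANNTG (72.3% of windows) and 1 AACNG, a core that MYB factors bind (80.3%). In Myb these 2 matches lay at 30 and 33 bases after the start and overlap. The Sox4 window held 4 CCAAT boxes (CCAAT, in 37.4% of windows) and the Myb window 0. ACAAT, a core of SOX factors (31%), was in neither. G and C made up 75.0% of the Myb window, a share that 3.91% of windows reach, and 52.0% of the Sox4 window, where the median was 52.7%. These matches describe letters only.

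The table holds RPKM, read counts scaled by the listed gene length and by the depth of the library, so levels can be compared between genes. The depth recovered from the values was 6308800 (A3) to 9068700 (C1) reads. T cell markers (Cd3e, Cd3d, Cd4 and Cd2, 4 of 4 measured) summed to between 921.9 (C3) and 1033 (C2) RPKM in every library. A1 and B1 stood apart from the other libraries of their labelled populations in Nr4a1, the gene whose regulatory sequence drives GFP. It stood at 57.7 RPKM in A1, labelled GFP low, against 26.1 in A2 and 22.9 in A3. It was at 35.97 in B1, labelled GFP intermediate, against 73.3 in B2 and 64.6 in B3. Nr4a1 was at 58.7, 64.7 and 67.8 RPKM in D1, D2 and D3, labelled GFP high. In C1, C2 and C3, labelled GFP intermediate, it was at 26.3, 28.3 and 23.4 RPKM. By this transcript B2 and B3 lay with D, and B1 lay between C and D. Dntt, a thymocyte gene, stayed with the labels of A1 and B1, at 7.91, 5.79 and 5.52 RPKM in B1, B2 and B3, against 13.98, 15.2 and 13.2 RPKM in A1, A2 and A3. Whether the names of A1 and B1 were exchanged was not tested. C3 stood apart by its plasma cell markers (Jchain, Xbp1 and Prdm1, 3 of 5 measured), which summed to 836.7 RPKM in C3 and to 18.3 to 24.4 RPKM in the other libraries. Results are therefore given with and without A1 and B1, and with and without C3 where it matters, and populations are named as labelled.

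Myb showed the widest range of the 3 genes. It was at 61.5, 62.96 and 69.6 RPKM in D1, D2 and D3, against 5.48, 6.28 and 5.25 RPKM in C1, C2 and C3. All D libraries lay far above all C libraries. In B, Myb was at 6.44 RPKM in B1, 72.7 in B2 and 66.5 in B3, against 58.7 RPKM in A1, 5.80 in A2 and 4.81 in A3. Thus B2, B3 and A1 held levels like those of D, and B1, A2 and A3 levels like those of C, so that B and A overlap. Ordered over the 12 libraries, the sixth value (58.7 RPKM, A1) was 9.12 times the seventh (6.44 RPKM, B1), while any other neighbours in the order differed by at most 1.09 times. No library lay between 6.44 and 58.7 RPKM. The exact Poisson interval at 95% of A1 was 56.2 to 61.3 RPKM (2074 reads) and that of B1 5.54 to 7.43 RPKM (186 reads), intervals that cover counting error only. On the scale of levels, Myb in D averaged 64.7 ± 4.31 RPKM (mean ± SD, n = 3), rank 838 of 10073 genes, and in C 5.67 ± 0.54 RPKM (n = 3), rank 7455.

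Sox4 was high and low in the same libraries as Myb, at lower levels and in another order within them. It was at 15.4, 15.9 and 15.3 RPKM in D1, D2 and D3, against 4.56, 4.30 and 3.28 RPKM in C1, C2 and C3. The D libraries did not overlap with C and lay closer to each other than those of any other population (SD 0.35 RPKM). In B it was at 4.88 RPKM in B1, 17.7 in B2 and 14.8 in B3, against 13.9 RPKM in A1, 4.23 in A2 and 3.33 in A3. The sixth value was again A1 and the seventh again B1, 2.86-fold apart, against at most 1.27-fold between other neighbours. Reads for Sox4 were few, 62 in A3 to 450 in B2, and the Poisson interval of A3 was 2.55 to 4.27 RPKM. The values of A2, A3, B1 and the 3 C libraries, 3.28 to 4.88 RPKM, cannot be put in order at this depth.

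Tox differed least between libraries. It was at 13.8, 12.7 and 13 RPKM in D1, D2 and D3, against 8.05, 7.46 and 6.01 RPKM in C1, C2 and C3. In B it was at 7.68 RPKM in B1, 13.03 in B2 and 12.8 in B3, against 12.4 RPKM in A1, 7.60 in A2 and 7.73 in A3. The 6 highest libraries were again D1, D2, D3, B2, B3 and A1, and A1 lay 1.54-fold above the next library, which was C1. C3 was the lowest of the 12, 1.24-fold below its neighbour C2. Where Tox was low it was above the other members: in C it averaged 7.17 ± 1.05 RPKM, against 5.67 ± 0.54 for Myb and 4.04 ± 0.68 for Sox4 (n = 3 each). In D the order was Myb, Sox4 (15.5 ± 0.35 RPKM) and Tox (13.2 ± 0.59).

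**Figure D1:**
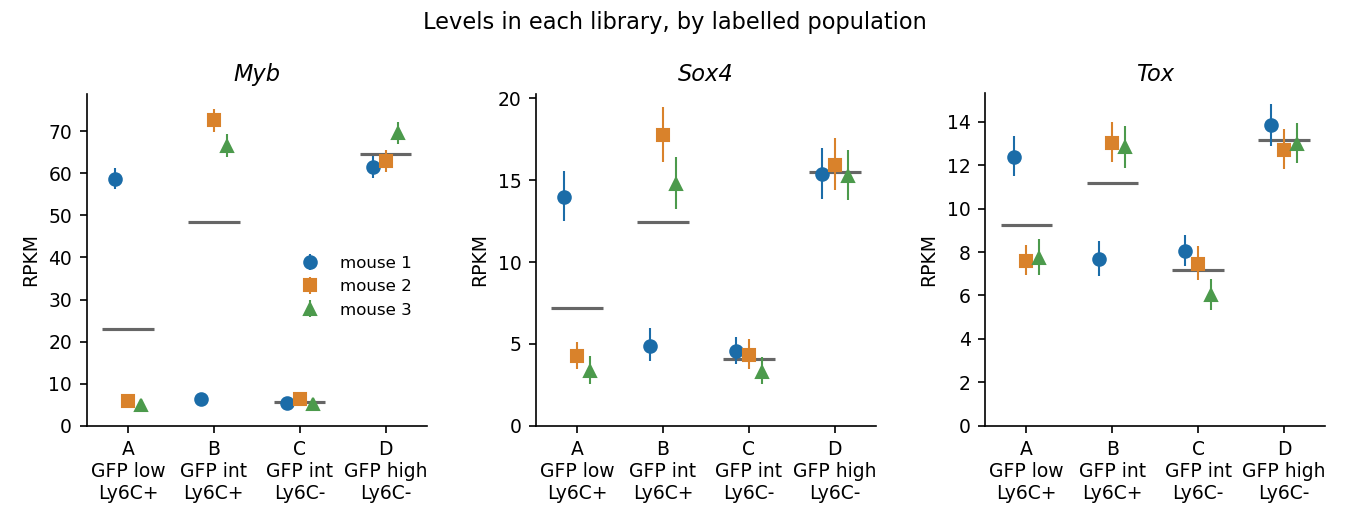
Level of Myb, Sox4 and Tox in RPKM (vertical axes from 0) in each of the 12 libraries, by labelled population, with a symbol per mouse, exact Poisson intervals at 95% as error bars and the population mean as a grey line. The 3 D libraries, B2, B3 and A1 are high, at 58.7 to 72.7 RPKM for Myb, and the 3 C libraries, A2, A3 and B1 are low, at 4.81 to 6.44 RPKM.

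D and C, both labelled Ly6C negative, differ by sort in GFP, high in D and intermediate in C. As a ratio of geometric means, Myb was 11.4-fold, Sox4 3.88-fold and Tox 1.85-fold as high in D as in C. Within mice 1, 2 and 3 the ratio of D to C was 11.2, 10.02 and 13.2 for Myb. It was 3.37, 3.71 and 4.66 for Sox4. It was 1.72, 1.70 and 2.16 for Tox. Mouse 3, whose C library is C3, gave the highest ratio for each gene. On log2(RPKM + 0.5), a scale that understates changes of low genes, the difference of D from C was 3.40 ± 0.19 for Myb, 1.83 ± 0.21 for Sox4 and 0.84 ± 0.18 for Tox (mean ± SD over 3 mice). By size of that difference they were number 3, 24 and 113 of the 10021 genes whose mean reached 0.5 RPKM, all 3 members among them. For each member all D values lay above all C values, as did those of 14.1% of genes tested. Since the choice of members used these values, nothing is read from that count. More cells with the transcript and more transcript per cell cannot be told apart in such bulk libraries.

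B and A, both labelled Ly6C positive, differ in GFP, intermediate in B and low in A, and here the mice disagreed. In mouse 1 the ratio of B to A was 0.110 for Myb, 0.350 for Sox4 and 0.620 for Tox. In mouse 2 it was 12.5 for Myb, 4.19 for Sox4 and 1.71 for Tox, and in mouse 3 it was 13.8, 4.44 and 1.66. The population means of log2(RPKM + 0.5) differed by 1.37 ± 3.86 for Myb, 0.84 ± 1.96 for Sox4 and 0.26 ± 0.79 for Tox (SD over 3 mice), so each difference was smaller than its spread. The values of B and A overlapped for each member, while 13.4% of genes tested had all B values above all A values. Without A1 and B1 the differences were 3.60, 1.97 and 0.72, and close in size to those between D and C. Why mouse 1 differed was not tested.

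Comparing D with A, the ends of the sort, the differences were 2.37 ± 2.01 for Myb, 1.32 ± 1.04 for Sox4 and 0.52 ± 0.32 for Tox on the log2 scale (SD over 3 mice). In mouse 1 the ratio of D1 to A1 was 1.05 for Myb, 1.10 for Sox4 and 1.12 for Tox, against 10.8, 3.76 and 1.67 in mouse 2 and 14.5, 4.59 and 1.68 in mouse 3. All D values lay above all A values for each member (14.1% of genes tested). That rests on A1, whose Poisson intervals overlap those of D libraries. For Myb they were 56.2 to 61.3 RPKM in A1 and 58.97 to 64.09 in D1. For Sox4 they were 12.49 to 15.53 in A1 and 13.8 to 16.86 in D3, and for Tox 11.49 to 13.35 in A1 and 11.81 to 13.66 in D2. Without A1 and B1 the differences were 3.49, 1.91 and 0.74.

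Comparing C with B sets Ly6C negative against positive at the same labelled GFP level. Myb was lower in C than in B in 3 of 3 mice, with ratios of C to B of 0.852 in mouse 1, 0.0865 in mouse 2 and 0.0789 in mouse 3. Sox4 ratios were 0.933, 0.242 and 0.222. Tox ratios were 1.05, 0.573 and 0.469. The log2 differences were -2.40 ± 1.89 for Myb, -1.34 ± 1.09 for Sox4 and -0.58 ± 0.57 for Tox (SD over 3 mice). All C values lay below all B values for Myb and Sox4, as in 8.83% of genes tested, and overlapped for Tox. For both genes that rests on B1, whose Poisson interval overlaps those of C libraries: for Myb 5.54 to 7.43 RPKM in B1 and 5.42 to 7.25 in C2, and for Sox4 3.95 to 5.97 in B1 and 3.78 to 5.44 in C1. Between the remaining pairs the members differed little once A1 and B1 were left out: D against B gave -0.11 for Myb, -0.06 for Sox4 and 0.03 for Tox, and C against A gave 0.09, 0.08 and -0.10. With them, D against B gave 1.01 ± 1.87, 0.48 ± 0.94 and 0.26 ± 0.47, and C against A gave -1.03 ± 1.97, -0.50 ± 0.87 and -0.32 ± 0.28. The comparisons share libraries, so they do not bear on each other independently.

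**Figure D2:**
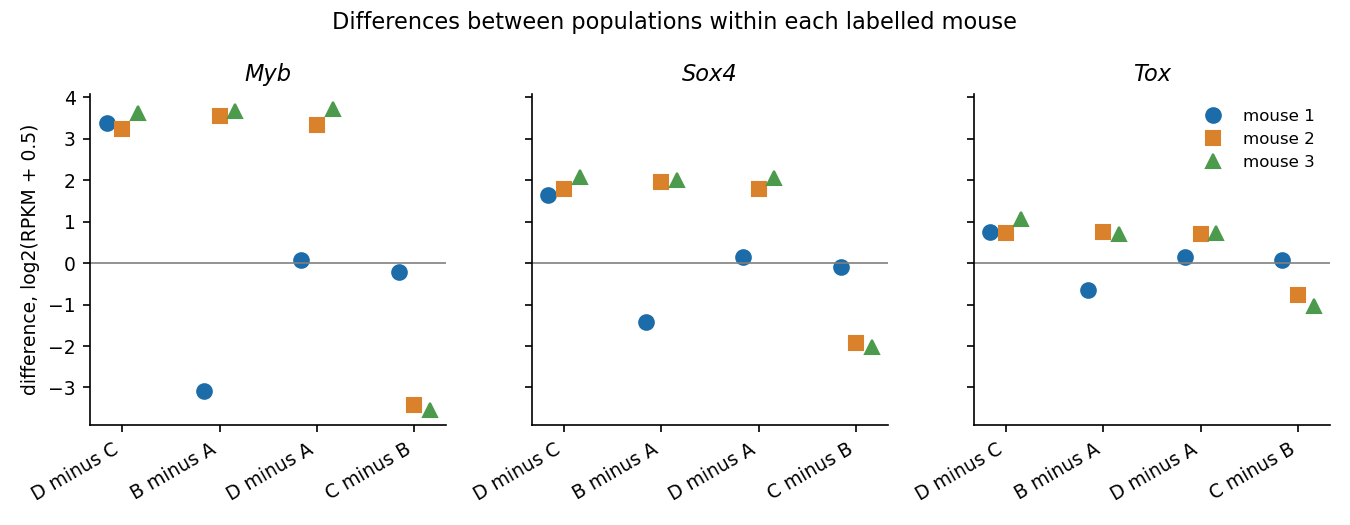
Difference of log2(RPKM + 0.5) between labelled populations within each mouse (symbols), for Myb, Sox4 and Tox, in 4 comparisons along the horizontal axis. The 3 mice lie together for D minus C (3.23 to 3.61 for Myb), and mouse 1 lies apart for B minus A (-3.09 for Myb, against 3.54 and 3.66 in mice 2 and 3).

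Other genes whose profile over the 12 libraries lay near that of a member were ranked by the root mean square difference between centred log2(RPKM + 0.5) values, so that both the pattern and its size count. Nearest to Myb were Eomes (0.17), which encodes the T-box factor eomesodermin, and Tnfrsf9 (0.21), the TCR-induced costimulatory receptor 4-1BB. Lag3 (0.39), an inhibitory receptor for MHC class II, Ikzf2 (0.45), the Ikaros family factor Helios, and Rgs16 (0.51), a brake on G protein signalling, followed. The SD of the Myb profile itself was 1.79. Eomes was at 9.30, 8.73 and 10.2 RPKM in D1, D2 and D3, against 0.475, 0.338 and 0.218 in C1, C2 and C3, and at 7.62 RPKM in A1. Its level was thus a small part of that of Myb, while its profile was nearly the same.

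Nearest to Sox4 were Il2rb (0.13), the beta chain of the interleukin 2 and 15 receptors, Itih5 (0.15), Hivep3 (0.19), Lad1 (0.19) and Ift80 (0.21), where the SD of the Sox4 profile was 0.96. Il2rb was at 30.9, 34.6 and 30.3 RPKM in D1, D2 and D3, against 8.47, 8.17 and 7.02 in C1, C2 and C3. Hivep3 encodes the zinc finger adapter Schnurri-3. Nearest to Tox were Tnfrsf4 (0.081), the costimulatory receptor OX40, Btbd11 (0.089), Rnf19a (0.093), a ubiquitin ligase, Icos (0.099), the costimulatory receptor of T follicular helper cells, and Cyth3 (0.10), where the SD of the Tox profile was 0.42. Icos was at 24.9, 28.4 and 24.6 RPKM in D1, D2 and D3, against 17.0, 16.2 and 12.2 in C1, C2 and C3. Between the members themselves, whose ranges differ in size, the difference was 0.81 for Myb and Sox4, 0.54 for Sox4 and Tox and 1.33 for Myb and Tox. The candidates numbered 34 for Myb, 122 for Sox4 and 1047 for Tox, because a gene had to vary at least 0.5 times as much as the member. These likenesses are descriptions over 12 libraries that share mice.

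**Figure D3:**
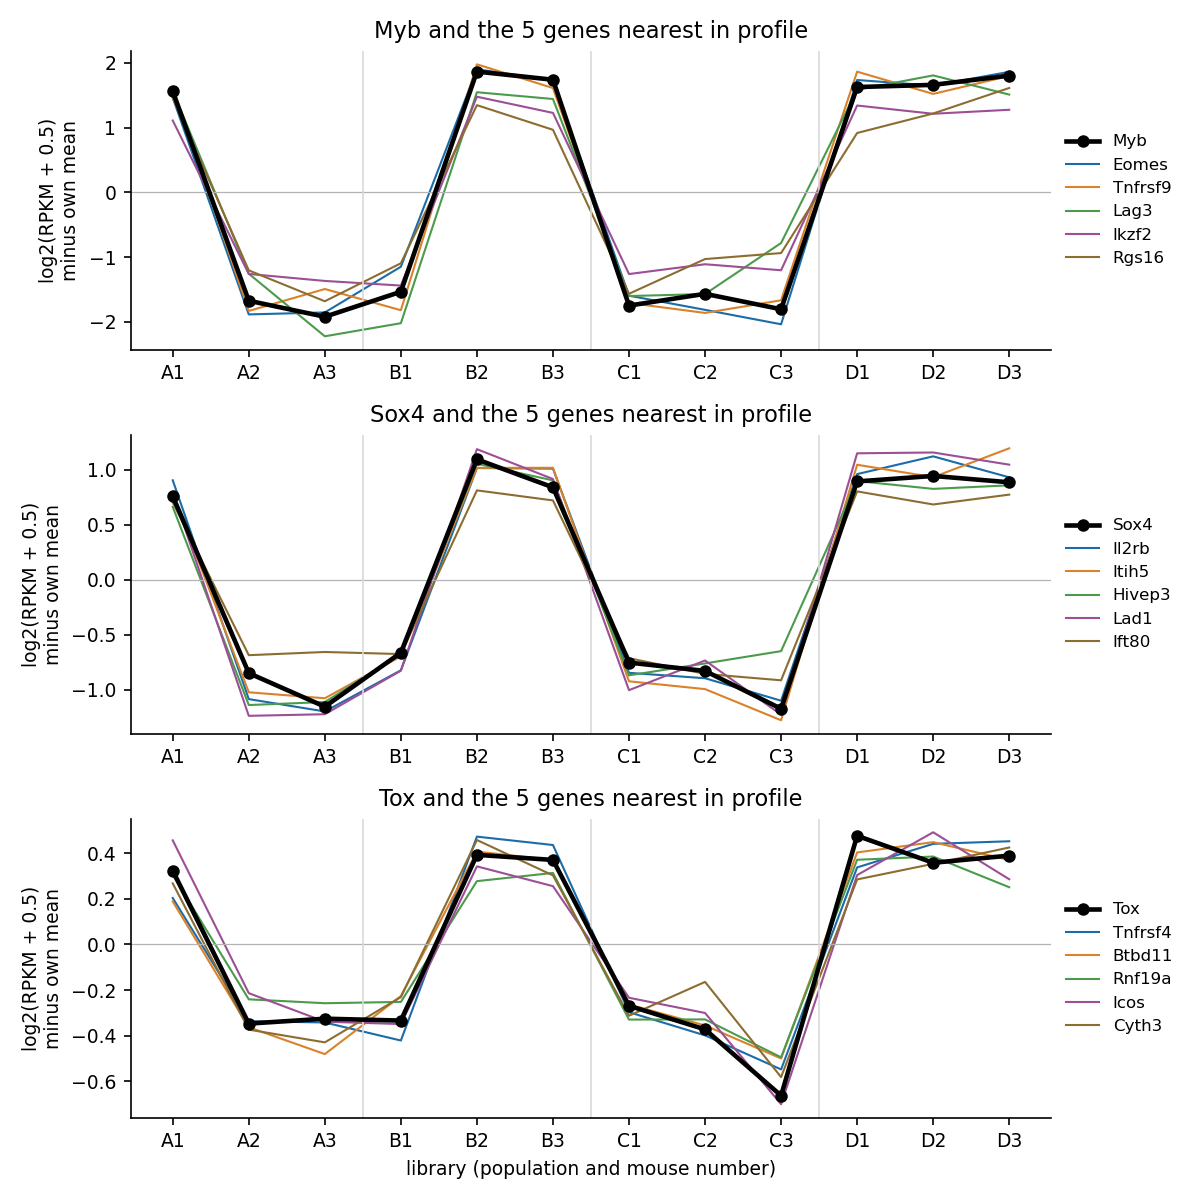
Profiles of log2(RPKM + 0.5), each minus its own mean, over the 12 libraries in the order A1 to D3, for each member (black) and the 5 genes nearest to it (colours). All lines are high in A1, B2, B3 and D1 to D3 and low in the other 6 libraries, with Myb spanning the most of the 3 members and Tox the least.

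Relatives of the members differed among themselves. Of 9 genes of the MYB, SOX and TOX families, 3 were measured, the other 6 not being analysed here, and these are tested, though the list was drawn up with earlier results of these libraries known. Tox2, a TOX family gene of T follicular helper and exhausted T cells, was at 4.09, 3.70 and 3.79 RPKM in D1, D2 and D3, against 1.12, 0.958 and 1.40 in C1, C2 and C3. It was at 1.27, 3.82 and 5.09 RPKM in B1, B2 and B3, against 3.26, 0.940 and 0.852 in A1, A2 and A3. It thus was high and low in the same libraries as Tox. In the fit of all 12 libraries with limma, Tox2 had a log2 difference of 1.40 ± 0.41 (SE) between D and C that did not pass (adjusted p = 0.118). In the fit of the 6 libraries of D and C alone it passed (1.40 ± 0.12, adjusted p = 0.000532). Tox4, a widely expressed member, averaged 18.8 ± 1.06 RPKM in D and 16.9 ± 0.86 in C (n = 3 each) and did not pass with 12 (adjusted p = 0.285) or 6 libraries (0.305). Mybl2, the MYB family factor of dividing cells, averaged 1.43 ± 0.19 RPKM in D and 1.39 ± 0.75 in C and did not pass either (adjusted p = 0.872 and 0.890).

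Of the remaining factors that build T cells in the thymus, 27 were listed and 24 measured. Their median log2 difference between D and C was 0.075, where that of all genes was 0.013. Tcf7, Bcl11b, Gata3 and Zbtb7b, given first, were picked after their values were seen and do not stand for the list. Tcf7, the TCF-1 factor of T cell commitment, averaged 350.0 ± 10.2 RPKM in D and 332.2 ± 20.2 in C. Bcl11b, which fixes T cell identity, averaged 79.3 ± 6.37 RPKM in D and 78.3 ± 8.89 in C. Gata3 averaged 12.4 ± 1.22 RPKM in D and 13.3 ± 0.41 in C, and Zbtb7b, the CD4 lineage factor ThPOK, 56.2 ± 1.92 in D and 58.2 ± 2.89 in C (SD, n = 3 each). In the limma fit of 12 libraries 0 of the 24 passed between D and C, where 8 lay higher and 1 lower at an unadjusted p under 0.05. Over all genes, 1817 of 10021 passed that unadjusted p in either direction. That fit called 1 of 10021 genes, or 0.00998%, and it pools the spread of A1 and B1. In the fit of the 6 libraries alone 4 were higher and 1 lower, where 3.35% of all genes were called higher and 1.45% lower. Those higher included Hivep3 (log2 difference 1.62 ± 0.09, adjusted p = 4.66e-05), Gfi1 (1.08 ± 0.10, 0.000691), a transcriptional repressor that acts in lymphoid development, and Id3 (0.81 ± 0.08, 0.0009), an inhibitor of E proteins that TCR signals induce. Runx3, which silences Cd4 in CD8 cells, was lower (-0.35 ± 0.07, 0.0263). With C3 also left out the count was again 4 higher and 1 lower, where 4.48% of genes were higher and 2.02% lower, and in the fit without A1 and B1 it was 4 and 1 as well, where 5.05% were higher and 2.58% lower.

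Of genes of thymocytes themselves, 10 listed and 5 measured, 0 were higher and 1 lower in D than in C with 12 libraries, and 2 were higher and 2 lower at an unadjusted p under 0.05. Of all 10021 genes tested, 1817 passed that unadjusted p in either direction. Dntt, the terminal transferase of antigen receptor rearrangement, was at 5.65 ± 0.61 RPKM in D and 13.3 ± 0.76 in C (n = 3 each), with all D values below all C values (9.89% of genes tested). It fell in D by 1.16 ± 0.12 on the log2 scale (adjusted p = 0.00404), and it was the 1 called gene of that comparison in the limma fit of 12 libraries. It was also lower in B than in A (-1.09 ± 0.12, limma adjusted p = 0.00791), with all B values below all A values (15.8% of genes tested), and lower in D than in A (-1.25 ± 0.12, 0.00187; no overlap, as in 11.7% of genes tested in that direction). It was higher in C than in B (1.01 ± 0.12, limma adjusted p = 0.0187), with no overlap, as in 6.31% of genes tested in that direction. Dntt alone of the 29 measured thymic genes, factors and thymocyte genes together, passed in each of these. The B and A call was lost without A2, B2 or B3 and the C and B call without B2, B3, C1, C2, C3 or D1, or with the 6 libraries alone (adjusted p = 0.468), each with its sign kept. That limma fit of C and B alone called 0 of all 10021 genes, so the loss is not particular to Dntt. In the 6 libraries of D and C alone Cd8b1, a CD8 chain, was lower too (-0.44 ± 0.09, adjusted p = 0.0354). Cd24a, a surface protein of thymocytes and B cells, was at 2.32, 3.42 and 4.07 RPKM in D1, D2 and D3, against 1.03, 0.401 and 42.6 RPKM in C1, C2 and C3. It was higher in D than in C with C3 left out (1.65 ± 0.25, adjusted p = 0.00289), C3 being the library high in plasma and B cell markers. Ccr9, a chemokine receptor of thymocytes and gut-homing cells, was at 2.77, 2.00 and 1.96 RPKM in D1, D2 and D3, against 1.08, 1.49 and 1.14 in C1, C2 and C3. It did not pass with 12 libraries (0.65 ± 0.26, adjusted p = 0.212) or 6 (0.65 ± 0.15, 0.0501) and passed as higher without A1 and B1 (0.65 ± 0.14, 0.0153). Cd1d1, which presents lipids to natural killer T cells, averaged 27.2 ± 1.66 RPKM in D and 24.4 ± 1.88 in C (n = 3 each) and did not pass in those limma fits (adjusted p = 0.25, 0.315 and 0.218).

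**Figure D4:**
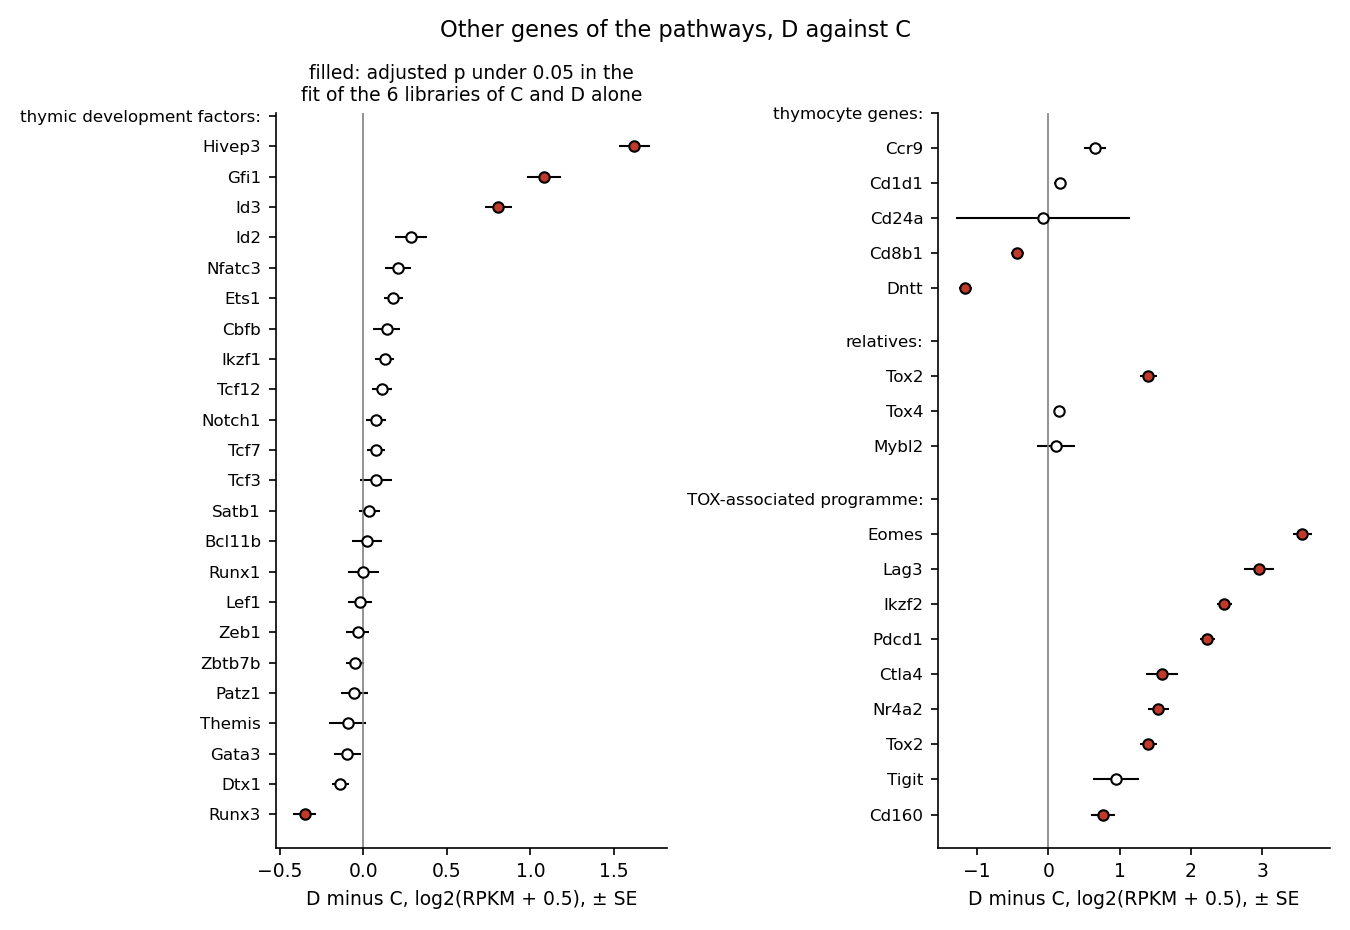
Difference of D from C in log2(RPKM + 0.5) (horizontal axes, points ± SE) for measured thymic development factors (left, all but 1), thymocyte genes, relatives of the members and genes of the TOX-associated programme (right), from the fit of the 6 libraries of D and C alone. Filled points passed an adjusted p of 0.05: among the factors shown Hivep3, Gfi1 and Id3 lie to the right and Runx3 to the left.

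For B against A, the count of thymic factors depended on A1 and B1. With all 12 libraries 0 of 24 passed (4 higher and 2 lower at an unadjusted p under 0.05), where 0.569% of genes were called higher and 1.66% lower (57 and 166 genes). Over all genes, 2313 of 10021 passed an unadjusted p of 0.05 in either direction in this limma fit. Blocking by mouse number gave 0 higher and 2 lower over all genes, and 2204 passed an unadjusted p of 0.05 in that limma fit. With B and A alone 1 passed, Themis, a TCR signalling adapter of thymocytes (-0.34, adjusted p = 0.0217), where 3.18% of genes were lower. In the fit without A1 and B1, 5 were higher and 1 lower, led by Hivep3 (2.11 ± 0.11, adjusted p = 1.45e-06) and Gfi1 (1.36 ± 0.14, 0.000243), where 6.66% of genes were higher and 4.26% lower. D against A and C against B each gave 0 of 24 with 12 libraries (6 higher and 1 lower, and 0 higher and 4 lower, at an unadjusted p under 0.05). Over all 10021 genes, 1905 passed that unadjusted p for D against A and 1342 for C against B. At the adjusted p each of these 2 fits called 1 gene over all, so a count of 0 of 24 says little about the factors. Without A1 and B1 the factors were 4 higher and 1 lower for D against A, where 6.08% of genes were higher and 2.76% lower, and 1 higher and 4 lower for C against B, where 2.76% were higher and 4.98% lower.

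Of genes reported as MYB targets, 9 listed and 5 measured, 0 passed between D and C with 12 libraries (0 higher and 1 lower at an unadjusted p under 0.05) and 0 with the 6 alone (0 and 1). Of all 10021 genes, 1817 passed that unadjusted p with 12 libraries and 1839 with the 6 alone. The median log2 difference of the 5 measured targets was -0.096, where that of all genes tested was 0.013. Myc averaged 24.1 ± 1.20 RPKM in D and 28.6 ± 1.36 in C (-0.24 ± 0.06, adjusted p = 0.068 with 6 libraries). Bcl2, which protects T cells from death, averaged 24.3 ± 1.17 RPKM in D and 26.98 ± 2.66 in C (-0.15 ± 0.08, 0.387 with 6 libraries). Cd4 averaged 226.2 ± 2.30 RPKM in D and 241.1 ± 12.7 in C (0.391 with 6 libraries). Without A1 and B1 in the fit Myc passed as lower in D (limma adjusted p = 0.0412), the 1 call among these 5 genes, where 2.58% of all genes were lower and 5.05% higher.

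The genes that accompany TOX in chronically stimulated T cells, 13 listed and 9 measured, had a median log2 difference of 1.60 between D and C, where that of all genes was 0.013. With 12 libraries 0 passed and 8 were higher at an unadjusted p under 0.05, which 1817 of all 10021 genes passed in either direction. With the 6 libraries alone 8 were higher and 0 lower, where 3.35% of all genes were higher and 1.45% lower, led by Eomes (3.56 ± 0.13, adjusted p = 7.97e-06), Ikzf2 (2.47 ± 0.10, 1.29e-05), Pdcd1 (2.23 ± 0.11, 1.91e-05), the PD-1 receptor, and Lag3 (2.95 ± 0.21, 0.000148). Nr4a2 was at 1.52, 2.18 and 1.56 RPKM in D1, D2 and D3, against 0.249, 0.263 and 0.298 in C1, C2 and C3. Tigit, an inhibitory receptor, was at 6.62, 3.72 and 4.31 RPKM in D, against 1.83, 1.36 and 4.11 RPKM in C, where C3 overlapped with D. It did not pass with the 6 libraries (0.95 ± 0.33, adjusted p = 0.163) and passed without C3 (1.33 ± 0.20, 0.0036). The list was drawn up with earlier results of these libraries known, so it is not independent evidence of a direction. For B against A the median was 0.85 with 0 passing (0 at an unadjusted p under 0.05), and 1.82 with 8 higher when A1 and B1 were left out, where 6.66% of all genes were higher.

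In the TGF-beta pathway, of 9 TGF-beta pathway genes, all measured, 0 passed between D and C with 12 libraries (1 higher and 0 lower at an unadjusted p under 0.05) or with 6 alone (1 and 1). Of all 10021 genes, 1817 and 1839 passed that unadjusted p in these fits. Smad7, the inhibitor of the pathway, averaged 37.2 ± 1.30 RPKM in D and 43.7 ± 2.57 in C, and passed as lower in D without A1 and B1 (-0.23 ± 0.06, limma adjusted p = 0.0412) and without C3 (-0.27 ± 0.06, 0.0288). Tgfb1, the ligand, averaged 65.7 ± 5.33 RPKM in D and 57.3 ± 2.70 in C, and Smad3, a signal transducer of the pathway, 20.2 ± 1.32 in D and 18.3 ± 1.16 in C (SD, n = 3 each). Of 9 calcineurin and NFAT genes 0 passed with 12 libraries (2 higher and 1 lower at an unadjusted p under 0.05). With 6 alone 1 was higher and 1 lower, where 3.35% of all genes were higher and 1.45% lower. Nfatc1, which encodes an inducible NFAT factor, was higher (0.54 ± 0.06, adjusted p = 0.00232) at 36.4 ± 2.86 RPKM in D and 24.8 ± 0.35 in C. Ppp3ca, a catalytic subunit of calcineurin, was lower (-0.50 ± 0.11, 0.0365). Between B and A with 12 libraries Ppp3r1, the regulatory subunit of calcineurin, was lower (-0.34 ± 0.08, adjusted p = 0.0463), a call lost with the mouse number as a block (adjusted p = 0.0671) and without A1 and B1 (0.0832).

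Markers of regulatory T cells and T follicular helper cells were high and low with the members. Il2rb, Ikzf2 and Icos among them were named above for profiles near a member's, so this is in part built in. Regulatory T cell markers (Foxp3, Il2ra, Ikzf2, Ctla4, Izumo1r and Il2rb, 6 of 6 measured) summed to 119.8 to 143.7 RPKM in D and 39.2 to 46.5 in C, to 128.6 in A1 against 33.8 and 42.7 in A3 and A2, and to 47.7 in B1 against 124.1 and 129.2 in B3 and B2. Foxp3, whose reporter was used to leave those cells out, was at 3.77, 3.25 and 3.99 RPKM in D1, D2 and D3, against 1.38, 1.45 and 1.27 in C1, C2 and C3. T follicular helper markers (Bcl6, Cxcr5, Pdcd1, Icos, Il21 and Sh2d1a, 6 of 6 measured) summed to 46.7 to 94.6 RPKM in A, 47.4 to 94.4 in B, 43.02 to 49.9 in C and 89.6 to 101.0 in D. Their part in the levels of Myb, Sox4 and Tox was not tested. Cycling markers (Mki67 and Top2a, 2 of 7 measured) summed to 4.71 to 7.18 RPKM in D, and to 2.72, 1.81 and 24.3 RPKM in C1, C2 and C3. They summed to 2.40, 6.68 and 4.88 RPKM in B1, B2 and B3, against 6.36, 3.29 and 2.66 RPKM in A1, A2 and A3. Outside C3 they were thus high and low in the same libraries as Myb, and their part in its level was not tested.

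Markers of other cell types were mostly represented by 1 gene. The thymocyte list had 1 of 6 measured (Cd8b1, 10.2 to 11.2 RPKM in D and 12.7 to 15.96 in C). B cell markers (Cd79a and Cd74, 2 of 6) summed to 11.04 to 28.2 RPKM in D and to 6.69, 11.3 and 246.7 RPKM in C1, C2 and C3. Erythroid Hbb-bs (1 of 5) was at 6.98 RPKM in A1, 14.0 in B1, 4.78 in C2 and 12.7 in D2. In the other libraries it was at 79.1 to 110.6 RPKM, so its low values did not follow the labelled mouse numbers. Myeloid (Itgam, 1 of 5) ranged from 1.11 to 1.46 RPKM in D and from 1.04 to 1.63 in C. Natural killer (Klrd1, 1 of 5) ranged from 9.35 to 10.15 in D and from 12.0 to 15.5 in C. CD44 protein was gated low, and its transcript, the 1 of 5 memory markers measured, was at 6.41 to 7.37 RPKM in D and 7.08 to 12.8 in C. Blood progenitor (0 of 5) and natural killer T cell (0 of 2) markers were not analysed here.

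Each member is overlapped on the opposite strand by another annotated gene in GENCODE M21, Gm26577 at Myb, Gm26735 at Sox4 and Gm11802 at Tox. The sources used here do not give whether counting used strand, so reads of these transcripts cannot be told apart from those of the members.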

How the data were processed

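The authors deposited 1 table of RPKM values, a column per library and 10073 genes with a length, per the file headers. Per the labels' protocols, sorted cells were lysed, the Quick-RNA MicroPrep kit served to purify RNA, and the SMART-seq v4 and NexteraXT kits to make libraries. The submitters' processing notes name STAR, mm9 and mm10, without a version or a role for either build. No account of read counting, strand use or the choice of listed genes was given in the sources used here.

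In each library a depth (6308800 to 9068700 reads) was found at which 100.0% of the values examined (at least 9705) became whole reads to within 0.1 read, and it gave the reads behind each value. The 10021 genes averaging 0.5 RPKM or more entered 1 limma fit (version 3.58.1, R 4.3.3) of log2(RPKM + 0.5) over 12 libraries, with a trend of the variance on the mean and no block. Within a comparison, Benjamini-Hochberg adjusted p-values over all genes tested were held against 0.05. The step was tested on simulated data of independent values, without a mouse effect or libraries that stand apart as A1, B1 and C3 do. That test therefore does not cover such features of these data. The p-values measure the spread between the libraries of 3 mice. Python 3.11.15 with numpy 2.4.6, pandas 2.3.3, scipy 1.17.1 and matplotlib 3.10.9 was used for the rest.

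Myb, Sox4, Tox and all lists were chosen with earlier results of these data known. Named from the lists were up to 4 members called per comparison by smallest p, or up to 2 as values. Tcf7, Bcl11b, Zbtb7b, Gata3, Cd24a, Ccr9, Cd1d1, Nr4a2, Tigit, Bcl2 and Smad7 were added after their values were seen. The values of 1 list gene are not reported here, though counts include it. The 5 genes nearest to each member were ranked among genes averaging 2 RPKM or more, leaving out clone and predicted-gene names.

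Libraries that share a mouse number came from 1 animal, per the labels, which is where the pairing comes from. Their deviations from the population means correlated across genes at -0.072 on average (18 pairs, from -0.613 to 0.379, 1 over 0.1). Hbb-bs was low in A1, B1, C2 and D2, which do not share a labelled mouse number. Whether the labelled pairing holds was not tested, and the ratios within mice and SDs over mice rest on it. The alternatives tried were a pseudocount of 0.1 or 1, a filter at 2 RPKM or none, rescaling by the median, quantile normalization, 2 populations alone, a mouse block, no trend, leaving out A1 and B1, and leaving out each library. Leaving C3 out of the fit of D and C alone was chosen after seeing the data.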

Additional observations from a re-analysis of the deposited data

How the results depend on the processing

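The log2 differences of Myb, Sox4 and Tox kept their sign in the 4 comparisons under every alternative that could alter them. Nothing is read from that, since the members were chosen by these values. A filter, no trend, 2 populations alone, a mouse block or leaving out a library of another population cannot alter these differences. Leaving out A1 and B1 moved those of B from A from 1.37, 0.84 and 0.26 to 3.60, 1.97 and 0.72. The SD of that difference over the 3 mice includes A1 and B1 themselves, so it cannot serve to judge the size of this move. Leaving out single libraries gave ranges for Myb of 3.35 to 3.47 (D and C), 0.75 to 2.49 (B and A), 1.75 to 3.49 (D and A) and -3.51 to -1.81 (C and B). Of the 29 measured thymic genes, 1 passed in each comparison with 12 libraries. With the 6 libraries of a comparison alone 7 passed for D and C, 3 for B and A and 0 for C and B, and with C3 left out of the fit of D and C alone 8 passed. Without A1 and B1 together D and C gave 8, B and A gave 9, D and A gave 7 and C and B gave 8. Calls over all genes rose as well in that fit, to 5.05% higher and 2.58% lower for D and C, 6.66% and 4.26% for B and A, 6.08% and 2.76% for D and A, and 2.76% and 4.98% for C and B. Leaving out single libraries gave 1 to 6 for D and C (5 without A1, 6 without B1), 0 to 3 for B and A (2 without A1 or B1, 0 without A2, B2 or B3, 3 without C1 or C3), 1 to 4 for D and A (4 without A1), and 0 to 7 for C and B (7 without B1, 0 without B2, B3, C1, C2, C3 or D1). With the mouse number as a block the count stayed at 1 in each comparison, and of the list genes called with 12 libraries Ppp3r1 lost its call, the other, Dntt, passing in all 4. Calls over all genes in the fits without single libraries are not given here, so nothing particular to thymic genes is read from these shifts. The cause of these shifts was not tested. Reads limit Sox4 most, with 62 in A3.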
